A study of Mus musculus with 24 samples.

Results

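Secreted Wnt antagonists and feedback targets of β-catenin signalling were followed through both RNA-seq experiments as 10 genes chosen by symbol. They are the 4 secreted frizzled-related proteins Sfrp1, Sfrp2, Sfrp4 and Sfrp5, the Dickkopf genes Dkk2 and Dkk3, the Wnt inhibitory factor Wif1, and the feedback genes Axin2, Nkd1 and Notum. All 10 were found among the 49568 genes listed in each table, and all 10 passed the filter on low values in both experiments. In the freshly sorted liver, 8 of the 10 were higher in PDGFRα+SCA1+ mesenchyme than in ductal cells, beside 9.85% of all genes tested. In PDGFRα+SCA1- mesenchyme 9 of the 10 were higher, beside 9.98%, whereas Sfrp5 was the sole member that was higher in ductal cells. In culture, Sfrp1, Sfrp2 and Dkk3 rose and Wif1, Sfrp4 and Axin2 fell in SCA1+Msc, while Axin2 rose in ductal cells that grew into organoids.

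The homeostasis experiment held 4 populations of 3 littermates, mice A and E (male) and F (female), aged 12 weeks on a C57BL/6 background. All of these mice, including those that gave the ductal cells, were heterozygous for Pdgfratm11(EGFP)Sor, a reporter that places a nuclear GFP in the Pdgfra locus, so PDGFRα+ here means reporter-positive. Ductal cells (DCs) were sorted as EpCAM+ and the stromal cells as PDGFRα+SCA1+, PDGFRα+SCA1- or PDGFRα-SCA1+, all negative for CD11b, CD45 and CD31 (n = 3 per population). The transwell experiment used wild-type C57BL/6 mice aged 8 to 12 weeks, with n = 2 in each of 6 groups. These were DCs at day 0, EM organoids (DCs grown for 15 days in expansion medium, which is rich in growth factors and holds RSPO1), co-cultured organoids (DCs grown for 15 days across a porous membrane from SCA1+Msc), and SCA1+Msc at day 0, kept alone until day 15 or kept with DCs until day 15. By the paper's methods, SCA1+Msc were expanded on plates in their own medium before fresh DCs were added for 15 days. Cultured SCA1+Msc and organoids therefore also differ in their time in culture. SCA1+Msc came from 2 littermates and DCs from 2 further ones, so groups of a cell type can share animals, and the labels do not say which. SCA1+Msc of that experiment were sorted on SCA1 and not on PDGFRα, so they can hold cells of more than 1 homeostasis fraction. SCA1+Msc were kept in a medium with WNT3a-conditioned medium, which the co-cultured organoids shared, whereas EM organoids met WNT3a only in the first days after isolation, so culture, time and medium cannot be told apart in any comparison with day 0.

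Wnt ligands bind Frizzled receptors and LRP5 or LRP6 co-receptors and stabilize β-catenin, which then acts with TCF/LEF factors on its target genes. Secreted frizzled-related proteins and WIF1 bind Wnt ligands outside the cell, DKK2 acts on the LRP co-receptors, and DKK3 is a divergent Dickkopf protein that is not a classical antagonist of these co-receptors. Axin2 encodes a scaffold of the complex that degrades β-catenin, Nkd1 an inhibitor that acts on Dishevelled, and Notum a secreted enzyme that removes the lipid which Wnt ligands need. These last 3 genes are themselves switched on by β-catenin in many tissues. In the liver, Wnt signalling is best known for zonation of hepatocytes around the central vein.

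Promoter sequence from RefSeq on GRCm38.p6 was at hand for 6 of the 10 genes, namely Sfrp2, Sfrp5, Dkk2, Wif1, Axin2 and Nkd1. The TCF/LEF letters CTTTGAT and CTTTGTT were searched on both strands in windows of 300 bases, 250 before and 50 after the start. Neither was present in any of the 6 windows, while 9.33% of all 32851 windows held at least 1 of them, and this says only that these letters are not in these windows. CpG dinucleotides in the 250 bases before the start numbered 24 for Axin2, 21 for Wif1, 16 for Sfrp2, 13 for Sfrp5, 7 for Dkk2 and 6 for Nkd1, against a median of 6 over all windows. The RefSeq start used for Nkd1 lies inside the gene interval given below, and the Wif1 window runs past the start of its interval, so both belong to another annotated start. Of all windows, 12.0% held as many as Axin2. The bases before the start are shown for 3 genes that set the cell types apart in different ways, namely Axin2 (chr11:108920099-108920348, plus strand), which was low in DCs and higher in organoids, Sfrp2 (chr3:83766071-83766320, plus strand), which was highest in PDGFRα+SCA1- mesenchyme, and Sfrp5 (chr19:42202253-42202502, minus strand), which was highest in DCs. Capitals mark CpG dinucleotides, and each run is written 5′ to 3′ on the strand of the gene.
Axin2: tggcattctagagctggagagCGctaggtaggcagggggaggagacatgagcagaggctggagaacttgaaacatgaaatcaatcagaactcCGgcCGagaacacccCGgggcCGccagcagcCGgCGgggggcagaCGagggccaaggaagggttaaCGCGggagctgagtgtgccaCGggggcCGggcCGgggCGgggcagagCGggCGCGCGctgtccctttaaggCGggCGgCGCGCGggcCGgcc
Sfrp2: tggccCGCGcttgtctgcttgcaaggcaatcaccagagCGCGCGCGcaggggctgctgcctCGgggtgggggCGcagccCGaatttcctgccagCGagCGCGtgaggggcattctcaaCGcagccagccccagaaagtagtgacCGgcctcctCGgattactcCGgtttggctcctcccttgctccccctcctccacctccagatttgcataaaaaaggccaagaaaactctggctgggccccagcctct
Sfrp5: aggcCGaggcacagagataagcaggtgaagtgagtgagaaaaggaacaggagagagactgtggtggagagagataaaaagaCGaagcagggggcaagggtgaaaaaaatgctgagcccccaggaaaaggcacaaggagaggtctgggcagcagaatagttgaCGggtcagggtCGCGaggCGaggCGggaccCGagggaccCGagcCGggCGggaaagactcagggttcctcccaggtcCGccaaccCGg

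Depth was 19.6 M to 25.7 M reads per library for the sorted fractions (median 22.4 M), and for the transwell libraries it was 19.3 M to 28.1 M (median 22.9 M), as recovered from the steps of low values. Homeostasis values carry the name TPM but were divided by totals that changed from gene to gene, so each is 0.722 to 1.39 times its TPM. They are called deposited values here, and transwell values are TPM. Both are per exon length, so TPM can be set beside each other between genes, and deposited values only roughly, within that range. Markers showed the labelled cell type in most groups, together with genes of other cell types. A list of 6 mesenchymal genes summed to 28547 to 51010 in the PDGFRα+ fractions but to 282 to 466 in PDGFRα-SCA1+ cells, in which 6 endothelial genes summed to 5739 to 8654 against 2.88 to 31.5 in the PDGFRα+ fractions, although CD31+ cells were sorted away. A list of 6 hepatocyte genes summed to 17370 to 21846 TPM in SCA1+Msc at day 0, 4241 to 5345 in DCs at day 0 and 56.1 to 401 in cultured SCA1+Msc. The labels also call SCA1+Msc ductal, but 6 ductal genes summed to 1283 to 2705 TPM in them at day 0, against 58073 to 58781 in DCs. Homeostasis DCs held hepatocyte genes at a sum of 5901 to 6982. In sorted bulk samples, fewer cells of a type and less RNA per cell cannot be told apart.

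Frizzled-related proteins did not all stand highest in the same fraction of the healthy liver. Sfrp1 (chromosome 8, 23411502 to 23449632, GRCm38) was the most abundant member in PDGFRα+SCA1+ cells, with deposited values of 976, 1212 and 911 in mice A, E and F. It reached 228, 362 and 245 in PDGFRα+SCA1- cells, 27.2, 20.9 and 15.4 in PDGFRα-SCA1+ cells and 1.58, 5.84 and 5.84 in DCs. The 4 populations did not overlap. Mean Sfrp1 was 1033 ± 158 (SD, n = 3) in PDGFRα+SCA1+ cells, 234-fold that of DCs (limma log2 difference 7.70 ± 0.39 SE, adjusted p = 6.02e-08). Between both PDGFRα+ fractions the log2 difference of 1.91 ± 0.39 missed the threshold (adjusted p = 0.0559), although every PDGFRα+SCA1+ value lay above every PDGFRα+SCA1- value.

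Sfrp2 and Sfrp4 took the opposite order within the PDGFRα+ mesenchyme. Sfrp2 (chromosome 3, 83766321 to 83774316) measured 326, 112 and 91.3 in PDGFRα+SCA1- cells, in the same order of mice, and 15.9, 12.3 and 12.6 in PDGFRα+SCA1+ cells. It was at or below 0.433 in every DC and PDGFRα-SCA1+ sample, which is at most 5 reads. Sfrp2 was the sole member called between both PDGFRα+ fractions, with a log2 difference of -3.38 ± 0.54 (PDGFRα+SCA1+ minus PDGFRα+SCA1-, adjusted p = 0.0236). That call ended with the mouse as a block (adjusted p = 0.0624), in a fit of only these 2 fractions, with a pseudocount of 0.1 and without any 1 of the 3 PDGFRα+SCA1+ samples, with adjusted p-values of up to 0.101. Sfrp4 (chromosome 13, 19623104 to 19632994) measured 150, 51.5 and 56.8 in PDGFRα+SCA1- cells against 44.4, 11.9 and 28.3 in PDGFRα+SCA1+ cells. These did not overlap, but the difference did not pass the test (adjusted p = 0.323). Sfrp4 was listed at 0 in all 3 PDGFRα-SCA1+ samples and was at most 0.315 in DCs.

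Sfrp5 ran against the rest of its family. This gene (chromosome 19, 42197971 to 42202252) measured 15.9, 7.76 and 16.1 in DCs of mice A, E and F. It was listed at 0 in all 6 PDGFRα+ samples and at 0.252, 0 and 0 in PDGFRα-SCA1+ cells. DCs therefore lay above all 9 stromal samples, and Sfrp5 was lower in each stromal fraction, with log2 differences of -3.77 ± 0.41 in both PDGFRα+ fractions and -3.66 ± 0.41 in PDGFRα-SCA1+ cells (limma, largest adjusted p = 3.68e-05). With a group at 0 these differences depend on the pseudocount of 1.

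Wif1 and the Dickkopf genes differed in where they stood in the PDGFRα-SCA1+ fraction. Wif1 (chromosome 10, 121033960 to 121100650) measured 343, 280 and 215 in PDGFRα+SCA1+ cells and 142, 137 and 65.4 in PDGFRα+SCA1- cells. It was 0.227, 0 and 0 in PDGFRα-SCA1+ cells and 0.0568, 0.0651 and 0.922 in DCs, so both PDGFRα+ fractions stood apart from the other samples. The log2 difference from DCs was 7.74 ± 0.45 in PDGFRα+SCA1+ cells (adjusted p = 1.79e-07), beside 7.70 ± 0.39 for Sfrp1. Dkk3 (chromosome 7, 112116017 to 112159057) measured 324, 263 and 423 in PDGFRα+SCA1+ cells, 487, 262 and 534 in PDGFRα+SCA1- cells, 55.3, 22.6 and 24.6 in PDGFRα-SCA1+ cells and 1.88, 6.43 and 5.14 in DCs. Both PDGFRα+ fractions overlapped in Dkk3, and both were above DCs, by 6.03 ± 0.45 and 6.33 ± 0.45 on the log2 scale (largest adjusted p = 1.46e-06).

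Dkk2 had its highest mean in PDGFRα-SCA1+ cells. This gene (chromosome 3, 132085292 to 132180304) measured 22.0, 13.4 and 38.4 in PDGFRα-SCA1+ cells, 3.09, 17.7 and 35.4 in PDGFRα+SCA1- cells and 2.15, 11.3 and 2.25 in PDGFRα+SCA1+ cells, and it was listed at 0 in all 3 DC samples. No difference between stromal fractions passed the test (smallest adjusted p = 0.0813), although PDGFRα-SCA1+ cells lay above PDGFRα+SCA1+ cells in every sample. Against DCs, Dkk2 was higher in PDGFRα-SCA1+ cells (4.56 ± 0.82, adjusted p = 0.00140) and PDGFRα+SCA1- cells (3.81 ± 0.82, adjusted p = 0.00414), while PDGFRα+SCA1+ cells missed the threshold (adjusted p = 0.0595) and passed it once the reuse of totals was undone.

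Feedback targets of β-catenin were also highest in the PDGFRα+ mesenchyme and low in DCs. Axin2 (chromosome 11, 108920349 to 108950783) measured 17.0, 13.2 and 9.21 in PDGFRα+SCA1+ cells, 26.0, 10.7 and 28.0 in PDGFRα+SCA1- cells and 1.62, 1.17 and 7.32 in PDGFRα-SCA1+ cells. DC samples held 0.0330, 0.0260 and 0 of Axin2, at most 1 read per library, which is under the floor of 3 reads below which a value cannot be told from absence. The log2 difference from DCs was 3.76 ± 0.62 in PDGFRα+SCA1+ cells (adjusted p = 7.90e-04) and 4.36 ± 0.62 in PDGFRα+SCA1- cells (adjusted p = 2.45e-04). In PDGFRα-SCA1+ cells every value lay above every DC value, but the test was just missed (adjusted p = 0.0546). Nkd1 (chromosome 8, 88521354 to 88594884) was the most abundant of the 3, at 93.6, 116 and 143 in PDGFRα+SCA1+ cells, 153, 95 and 81.5 in PDGFRα+SCA1- cells, 20.4, 9.42 and 27.6 in PDGFRα-SCA1+ cells and 0.286, 0.785 and 0.398 in DCs. All 3 stromal fractions were above DCs in Nkd1, by 6.31 ± 0.43, 6.18 ± 0.43 and 3.65 ± 0.43 on the log2 scale (limma, largest adjusted p = 5.27e-05).

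Notum gave the smallest of the differences that passed between PDGFRα+ mesenchyme and DCs. It lies on chromosome 11 (120653788 to 120661175) and measured 15.2, 19.5 and 13.9 in PDGFRα+SCA1+ cells, 3.95, 10.5 and 17.6 in PDGFRα+SCA1- cells, 0, 0 and 1.38 in PDGFRα-SCA1+ cells and 1.46, 3.09 and 0.197 in DCs. Both PDGFRα+ fractions were above DCs without overlap, by 2.89 ± 0.67 (adjusted p = 0.00746) and 2.15 ± 0.67 (adjusted p = 0.0311). The second of these calls was lost under 7 of 20 alternatives, among them without DCs of mouse A or F and without PDGFRα+SCA1- cells of mouse E or F, with adjusted p-values of up to 0.129.

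**Figure D1:**
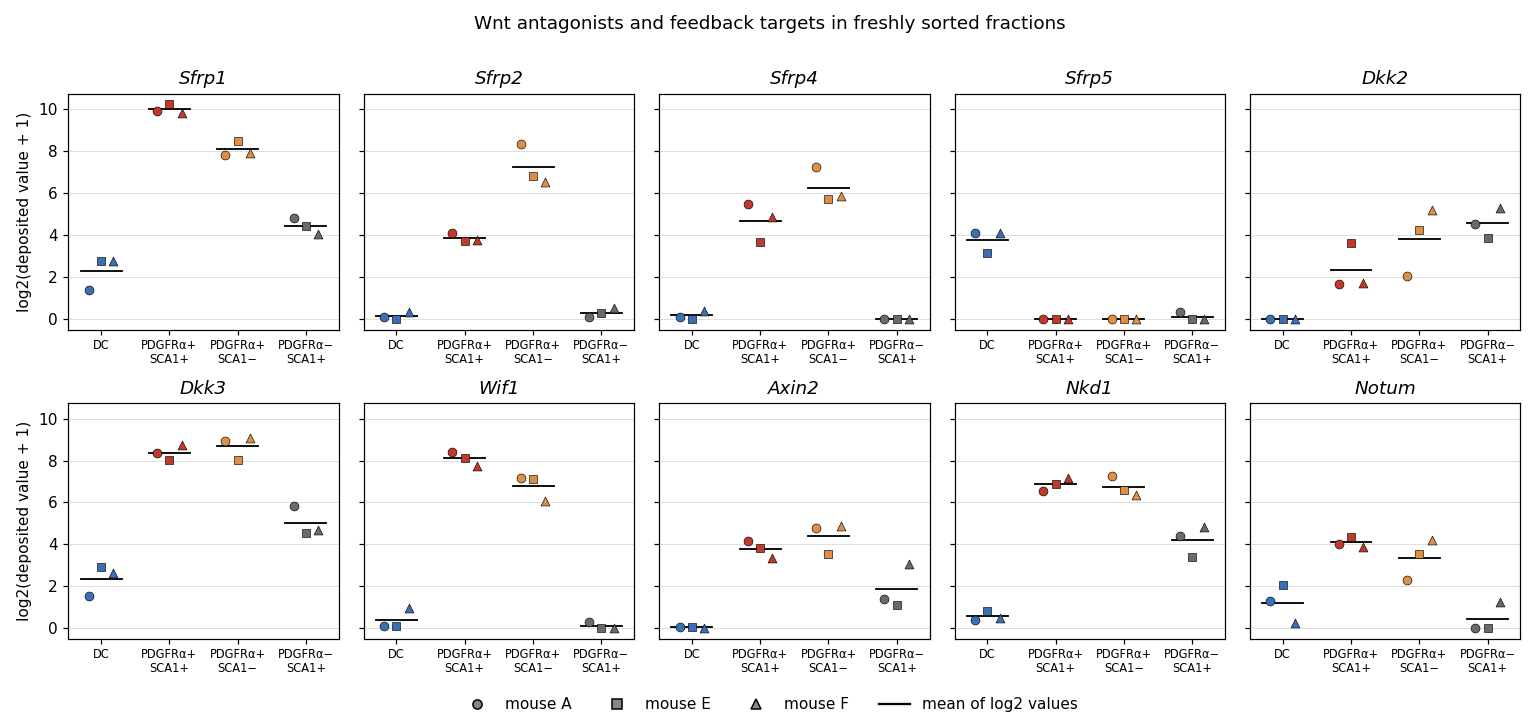
Levels of the 10 genes in the freshly sorted fractions, as log2(deposited value + 1) on a linear axis of log2 units, with 1 panel per gene, 1 symbol per mouse and a bar at the mean of the log2 values (n = 3). Sfrp1, Dkk3, Wif1 and Nkd1 stand highest in the PDGFRα+ fractions, Sfrp2 is highest in the PDGFRα+SCA1- fraction, and Sfrp5 is above 0 mainly in DCs.

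Counted together, 9 of the 10 members passed the test between PDGFRα+SCA1+ cells and DCs, 8 of them higher and Sfrp5 lower, where 23.8% of the 17028 genes tested were called, 9.85% higher and 14% lower. All 10 passed between PDGFRα+SCA1- cells and DCs, 9 higher and Sfrp5 lower, beside 28.8% of all genes (9.98% higher and 18.9% lower). Between PDGFRα-SCA1+ cells and DCs 5 passed, with Sfrp1, Dkk2, Dkk3 and Nkd1 higher and Sfrp5 lower, beside 22.8% of all genes (11.5% and 11.3%). The median log2 difference of the members was 4.14, 5.95 and 0.99 in these 3 comparisons, and that of all genes tested was -0.28, -0.47 and -0.04. Quantile normalization moved the medians of all genes to -0.10, -0.13 and -0.06 and left these counts of members as they were. The 3 comparisons share the DC samples. The PDGFRα-SCA1+ sample of mouse E carried ductal genes at a sum of 3953, against 82.6 and 349 in mice A and F. Without that sample 6 members passed against DCs, with Axin2 added. The count was also 6 without PDGFRα+SCA1- cells of mouse A or E, which take no part in that comparison. The part of the ductal genes was not tested.

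Within the stroma, PDGFRα-SCA1+ cells held less of most members. Against PDGFRα+SCA1+ cells 7 were lower (Sfrp1, Sfrp2, Sfrp4, Dkk3, Wif1, Nkd1 and Notum) and none higher, beside 7.86% of all genes called lower. Axin2 lay just outside the threshold there (-1.93 ± 0.62, adjusted p = 0.0501). Against PDGFRα+SCA1- cells the same 7 and Axin2 were lower, beside 7.24%, and in a fit of only those fractions the calls of Axin2 (adjusted p = 0.121) and Notum (adjusted p = 0.0766) were lost. The largest of these differences was that of Wif1 against PDGFRα+SCA1+ cells, at -8.01 ± 0.45 (adjusted p = 3.95e-07). The endothelial marker list given above moves with the same fraction, and its part in these differences was not tested. Between both PDGFRα+ fractions, 1 of 10 members was called, lower in PDGFRα+SCA1+ cells, beside 0.587% of all genes (0.435% higher and 0.153% lower), and the count ran from 0 to 2 when single samples were left out, with 2 (Sfrp1 and Sfrp2) without DCs of mouse A or PDGFRα+SCA1- cells of mouse E. A list of 5 smooth muscle genes summed to 134 to 175 in the SCA1+ fraction of these and 1245 to 2798 in the SCA1- fraction. Stellate (415 to 501 against 522 to 1230) and portal fibroblast genes (325 to 401 against 532 to 671) were also lower in the SCA1+ fraction. So were mesothelial (10.9 to 27.1 against 40.2 to 147) and macrophage genes (0 to 17.7 against 17.8 to 72.5), while the remaining lists overlapped. The part of these lists in the difference of Sfrp2 was not tested.

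**Figure D2:**
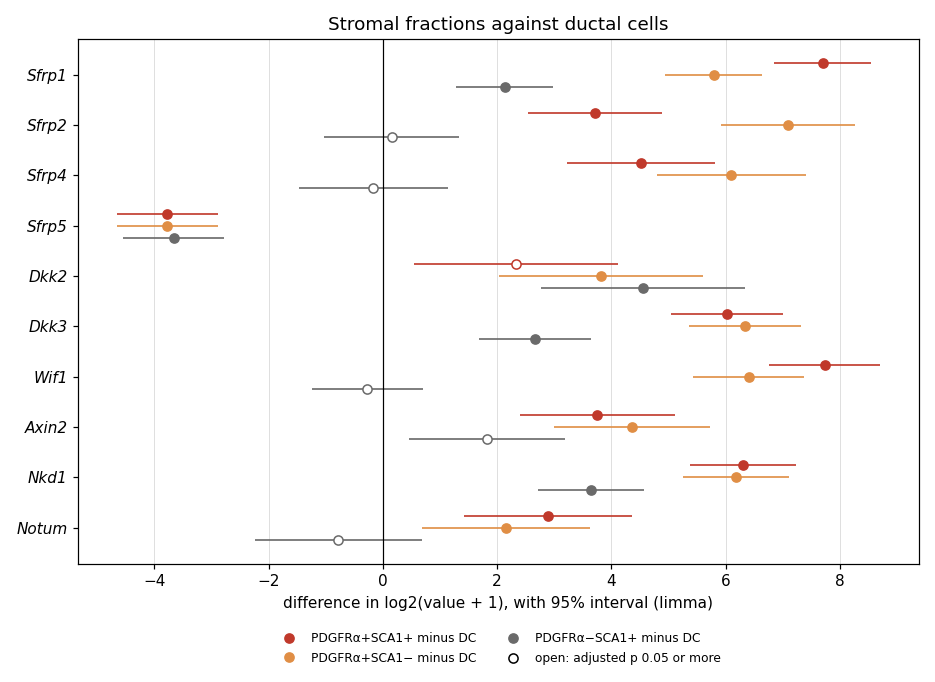
Differences in log2(deposited value + 1) between each stromal fraction and DCs, with 95% intervals from limma, where filled points passed the test at an adjusted p under 0.05 and open points did not. Sfrp5 lies to the left of 0 in all 3 fractions, and the grey points of PDGFRα-SCA1+ cells for Sfrp2, Sfrp4, Wif1 and Notum have intervals that include 0.

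Other genes of the pathway with the same kinds of role were read from lists. Against DCs, 23.8% of all genes were called in PDGFRα+SCA1+ cells (9.85% higher and 14% lower). In PDGFRα+SCA1- cells 28.8% were called (9.98% and 18.9%). The count of further feedback targets called lay near these shares, and that of the destruction complex and its transducers below them. Among 10 further secreted antagonists, 3 were expressed enough to test, and all 3 were higher in both PDGFRα+ fractions than in DCs. They are Frzb, another frizzled-related protein (5.54 ± 0.46 and 6.47 ± 0.46, with the SCA1+ fraction first), Igfbp4 (6.44 ± 0.21 and 5.30 ± 0.21) and Angptl4 (3.25 ± 0.40 and 2.31 ± 0.40). Of 8 membrane inhibitors and Dickkopf receptors, 7 were tested, and Shisa2, Shisa3, Tpbg, Kremen1 and Apcdd1 were higher and Rnf43 lower in both PDGFRα+ fractions. Of 7 tested further feedback targets, Nkd2, the paralogue of Nkd1, was higher (4.51 ± 0.81 and 5.96 ± 0.81) and the cell cycle gene Ccnd1 was lower (-4.86 ± 0.93 and -5.11 ± 0.93) in both, while Myc was lower in PDGFRα+SCA1- cells (-0.91 ± 0.28, adjusted p = 0.0310) and missed the threshold in PDGFRα+SCA1+ cells (adjusted p = 0.173). Among 14 tested receptors and co-receptors, 6 were higher in both PDGFRα+ fractions, with Fzd1 and Fzd2 among them, and Fzd6 and Fzd9 were lower. Of the 13 genes of the destruction complex and its transducers, Ctnnb1, which encodes β-catenin, was lower in both (-2.17 ± 0.24 and -2.11 ± 0.24), and no further gene was called in PDGFRα+SCA1+ cells.

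Genes with the most similar profiles were sought over the 12 homeostasis samples, among 11961 genes, by Pearson's r of log2 values. This is a description across samples of 4 populations and carries no test. Sfrp1 was most like Fmod (r = 0.988), Des and Hsd11b1, Wif1 most like Arhgap20 (r = 0.994), Hsd11b1 and Pi15, and Nkd1 most like Lox (r = 0.989), Pcdhgc3 and Nr4a3. Sfrp5 was most like Oit1 (r = 0.999), Igsf1 and Sctr, the secretin receptor of cholangiocytes. Among the members, Sfrp2 and Sfrp4 had an r of 0.969 and Dkk3 and Nkd1 of 0.968, whereas Dkk2 had an r of 0.126 with Wif1 and 0.119 with Notum.

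At day 0 of the transwell experiment, all 10 members passed the test between SCA1+Msc and DCs, where 46.1% of the 18136 genes tested were called, 21.4% higher and 24.7% lower. Sfrp5 was again lower in the stroma and the remaining 9 were higher. The median log2 difference was 4.45 for the members and -0.07 for all genes. The differences ran from 3.36 ± 0.47 for Axin2 to 6.80 ± 0.36 for Sfrp1 on the log2 scale among the 9, and that of Sfrp5 was -2.15 ± 0.38 (largest adjusted p = 0.00668, for Notum). The Notum call was lost without DC replicate 1, without SCA1+Msc replicate 1 and in a fit of only the groups compared (adjusted p of up to 0.0978), and that fit also ended the calls of Sfrp4 and Sfrp5. Sfrp1 measured 392.4 and 300.5 TPM in both SCA1+Msc samples and 1.75 and 2.49 in DCs. Sfrp5 measured 5.08 and 6.39 TPM in DCs and 1.28 and 0 in SCA1+Msc. Hepatocyte and endothelial genes were also present in SCA1+Msc at day 0 (sums of 17370 to 21846 and 539 to 616 TPM), and their part in the levels of the members was not tested.

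Cultured SCA1+Msc gained some antagonists and lost others. Sfrp1 rose from 392.4 and 300.5 TPM at day 0 to 1610 and 1640 in Msc alone and 985 and 1529 in co-cultured Msc. That was 4.69-fold in Msc alone (2.24 ± 0.36, adjusted p = 7.77e-04) and 3.63-fold in co-culture (1.83 ± 0.36, adjusted p = 0.00256). Sfrp2 measured 33.4 and 27.3 TPM at day 0, 178 and 304 alone and 110 and 264 in co-culture, and the groups did not overlap with day 0. Its log2 differences were 2.91 ± 0.44 (adjusted p = 5.74e-04) and 2.46 ± 0.44 (adjusted p = 0.00161). Dkk3 rose from 265 and 169 TPM to 843 and 700 alone and 530 and 575 in co-culture, by 1.85 ± 0.25 (adjusted p = 3.01e-04) and 1.38 ± 0.25 (adjusted p = 0.00180). With a pseudocount of 0.1 the calls of Sfrp1 and Sfrp2 were lost in both cultures (adjusted p of up to 0.117), and in a fit of only the groups compared those of Sfrp2 and Dkk3 (adjusted p = 0.0585 for Dkk3) were lost in co-culture.

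Dkk2 followed the same direction with a wider spread. It measured 45.2 and 15.2 TPM at day 0, 131 and 51.9 in Msc alone and 60.3 and 57.2 in co-culture. The rise passed the test in Msc alone (1.61 ± 0.51, adjusted p = 0.0288) but not in co-culture (adjusted p = 0.108). Leaving out the lower day 0 sample (replicate 2) or replicate 1 of Msc alone ended the first call, with adjusted p-values of up to 0.264 over the alternatives. A list of 5 smooth muscle genes rose alongside, from sums of 583 to 795 TPM at day 0 to 3166 to 3464 alone and 3571 to 3935 in co-culture, and its part in these changes was not tested.

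Wif1 and Sfrp4 fell in the same cultures. Wif1 dropped from 132 and 57.5 TPM at day 0 to 5.59 and 0.280 in Msc alone and to 2.15 and 0 in co-culture. The mean was 32.3-fold lower in Msc alone (-4.93 ± 0.82, adjusted p = 9.79e-04) and 88.2-fold lower in co-culture (-5.64 ± 0.82, adjusted p = 4.55e-04). Sfrp4 measured 7.40 and 56.5 TPM at day 0, 1.48 and 0.309 in Msc alone, and was listed at 0 in both co-cultured samples. Its log2 differences from day 0 were -3.61 ± 0.74 (adjusted p = 0.00318) and -4.46 ± 0.74 (adjusted p = 9.96e-04), and the second depends on the pseudocount. In a fit of only the groups compared, both Sfrp4 calls and that of Wif1 in Msc alone were lost, with adjusted p-values of up to 0.142.

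Feedback targets did not move as a block in SCA1+Msc. Axin2 measured 13.7 and 7.88 TPM at day 0, 4.97 and 2.34 in Msc alone and 1.61 and 4.08 in co-culture, and all 4 cultured values were below both day 0 values. Its decrease was 2.95-fold in Msc alone (-1.36 ± 0.47, adjusted p = 0.0419) and 3.80-fold in co-culture (-1.65 ± 0.47, adjusted p = 0.0186). The first call was lost under 10 of 20 alternatives, among them without day 0 replicate 1 or replicate 2 of Msc alone (adjusted p of up to 0.236), and the second under 4, among them without day 0 replicate 1 or co-cultured replicate 1 (adjusted p of up to 0.141). Nkd1 measured 85.1 and 67.3 TPM at day 0, 81.4 and 87.2 alone and 54.9 and 69.0 in co-culture, with 95% intervals of the log2 difference from -0.41 to 0.72 and from -0.86 to 0.27. Notum measured 37.0 and 13.6 TPM at day 0, 9.20 and 4.68 alone and 6.76 and 5.46 in co-culture. The cultured Notum values were all below those of day 0, but the differences did not pass (adjusted p = 0.148 and 0.128).

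In all, 7 of 10 members passed between Msc alone and day 0, with Sfrp1, Sfrp2, Dkk2 and Dkk3 higher and Sfrp4, Wif1 and Axin2 lower, beside 44.8% of all genes called, 27.4% higher and 17.5% lower. In co-cultured Msc 6 passed, with Sfrp1, Sfrp2 and Dkk3 higher and Sfrp4, Wif1 and Axin2 lower, beside 43.3% of all genes (26% and 17.3%). With a pseudocount of 0.1 both counts dropped to 3, and these were Sfrp4, Dkk3 and Wif1 in each comparison. The median log2 difference of the members was -0.22 and -0.44, that of all genes tested 0.19 and 0.17. Hepatocyte genes fell from the sums given above to 73.4 to 95.6 TPM in Msc alone, and their part in the falls of Wif1, Sfrp4 and Axin2 was not tested.

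**Figure D3:**
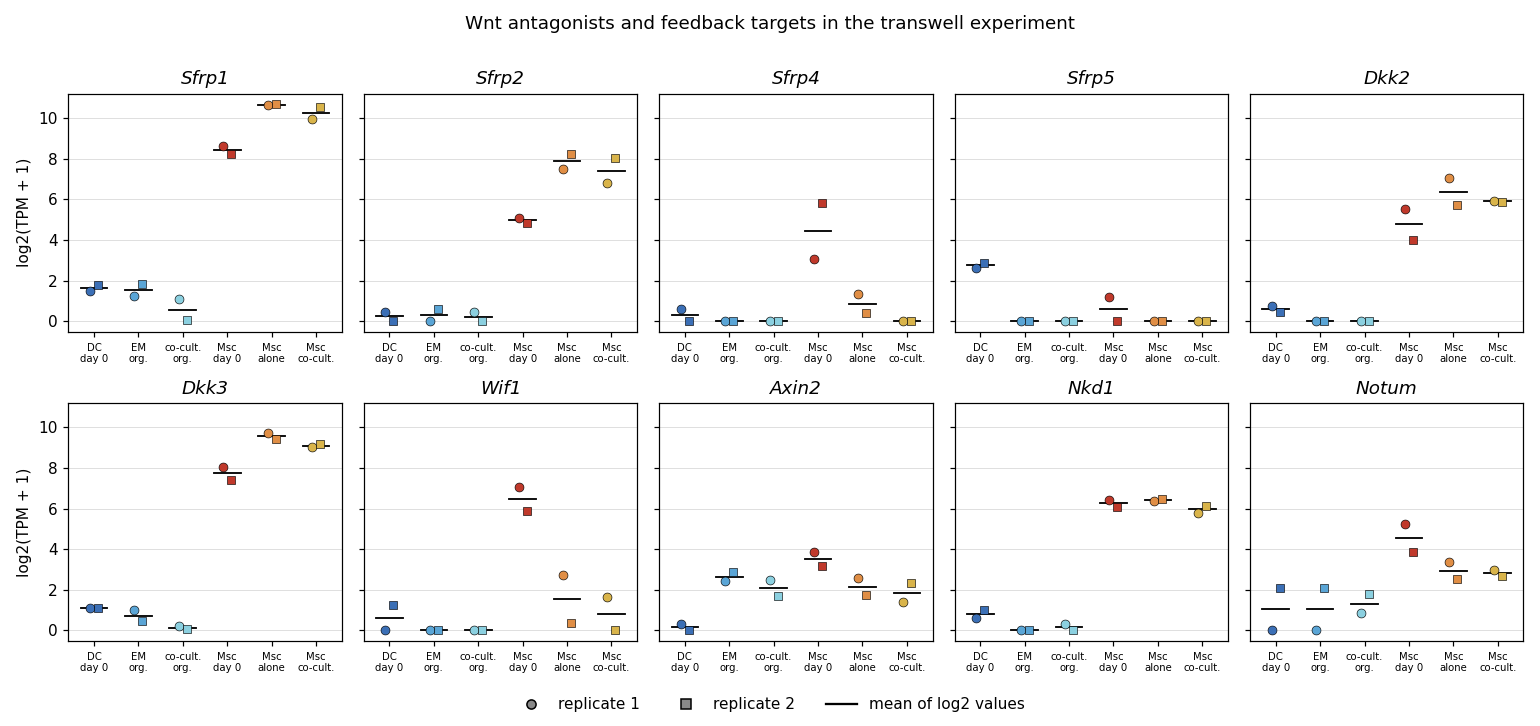
Levels of the 10 genes in the 6 transwell groups, as log2(TPM + 1) on a linear axis of log2 units, with 1 symbol per replicate and a bar at the mean of the log2 values (n = 2). Sfrp1, Sfrp2 and Dkk3 stand higher in cultured SCA1+Msc than at day 0, Wif1 and Sfrp4 lower, and Axin2 is higher in both organoid groups than in DCs at day 0.

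In ductal cells, Axin2 rose in both kinds of organoid. It measured 0.232 and 0 TPM in DCs at day 0, 4.46 and 6.26 in EM organoids and 4.67 and 2.26 in co-cultured organoids, so the organoid samples lay above both DC samples. The counts behind these values were 11 and 0 reads in DCs, 175 and 220 in EM organoids and 230 and 94 in co-cultured organoids. The log2 difference was 2.503 ± 0.47 in EM organoids (adjusted p = 0.00205) and 1.95 ± 0.47 in co-cultured organoids (adjusted p = 0.00835). The call in co-cultured organoids was lost without replicate 2 of DCs or replicate 1 of the co-cultured organoids (adjusted p of up to 0.0750), while that in EM organoids passed under all 20 alternatives. Cultured SCA1+Msc held 1.61 to 4.97 TPM of Axin2. Hepatocyte genes summed to 1345 to 1409 TPM in EM organoids and 179 to 371 in co-cultured organoids, below DCs, and 5 mesothelial genes summed to 135 to 156 in DCs, 300.1 to 327 in EM organoids and 3882 to 4504 in co-cultured organoids. Of the mesothelial list, Wt1 and Lrrn4 were at 0 in all co-cultured organoid samples, so that sum came from the remaining genes of the list. The part of these lists in the rise of Axin2 was not tested.

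Sfrp5 was lost from ductal cells in culture. It went from 5.08 and 6.39 TPM in DCs, which are 83 and 76 reads, to a listed 0 in all 4 organoid samples. The log2 difference was -2.74 ± 0.38 in both kinds of organoid (adjusted p = 3.01e-04 and 3.34e-04), and it depends on the pseudocount because the organoids are at 0. The remaining members were low in DCs and organoids alike, at no more than 3.19 TPM in any ductal sample. Nkd1 was 0.535 and 0.982 TPM in DCs, listed at 0 in both EM organoid samples (-0.80 ± 0.25, adjusted p = 0.0271) and 0.221 and 0 in co-cultured organoids (adjusted p = 0.0616). Nkd1 was under 1 TPM in every ductal sample and passed the filter only through SCA1+Msc, so its call is not taken as a change in ductal cells. Sfrp1 was lower in co-cultured organoids, at 1.12 and 0.0303 TPM against 1.75 and 2.49 in DCs (-1.07 ± 0.36, adjusted p = 0.0374), and so was Dkk3, at 0.166 and 0.0395 TPM against 1.18 and 1.14 (-0.97 ± 0.25, adjusted p = 0.0118). The Sfrp1 call was lost under 13 of 20 alternatives, that of Dkk3 under 4 and that of Nkd1 under 5, with adjusted p-values of up to 0.280, 0.124 and 0.191. Each was lost without DC replicate 2, and the first 2 also without co-cultured organoid replicate 2.

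Counts of members in ductal cells lay below or near the share of all genes. In EM organoids 3 of 10 members passed against DCs, Axin2 higher and Sfrp5 and Nkd1 lower, where 44.4% of all genes were called, 27.1% higher and 17.2% lower. In co-cultured organoids 4 passed, Axin2 higher and Sfrp1, Sfrp5 and Dkk3 lower, where the shares were 42.3%, 23.2% and 19.1%, and the count fell to 1 (Sfrp5) without DC replicate 2 and to 2 (Sfrp5 and Axin2) without co-cultured organoid replicate 2 or with RPKM as deposited. The median log2 differences of the members were -0.34 and -0.61, beside 0.12 and 0 for all genes. Both comparisons share the day 0 DCs. Sfrp2, Sfrp4, Dkk2, Wif1 and Nkd1 passed the filter on low values only through SCA1+Msc, which limits what these counts can show. The mesenchymal marker list summed to 68.6 to 90.6 TPM in DCs at day 0 and 1.15 to 14.9 in organoids, and its part in the low levels of Sfrp1, Dkk3 and Nkd1 in DCs was not tested.

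Co-culture against culture apart called no member in either cell type. For the organoids the stroma and the medium changed together here, so their effects cannot be told apart. Between co-cultured and EM organoids 0 of 10 passed (limma), while 12.9% of all genes did (5.73% higher and 7.21% lower), and 2 (Sfrp1 and Dkk3, both lower in co-culture) had an unadjusted p under 0.05. Sfrp4, Sfrp5, Dkk2 and Wif1 were listed at 0 in every organoid sample, so they could not be called. Sfrp2 and Nkd1 reached at most 0.509 and 0.221 TPM there. The count of 0 was thus largely fixed beforehand and cannot be read against the share of all genes. Axin2 was 3.47 ± 1.70 TPM (SD, n = 2) in co-cultured and 5.36 ± 1.27 in EM organoids, and the 95% interval of its log2 difference ran from -1.62 to 0.52. Between co-cultured Msc and Msc alone 0 of 10 passed, and none had an unadjusted p under 0.05, where 0.127% of all genes were called (0.0937% higher and 0.0331% lower). Fitted differences there ran from -0.85 to 0, and the 95% interval of each member included 0. These intervals ran from -2.55 to 1.78 over the members, the widest being those of Notum, Wif1 and Sfrp4. Sfrp5 was listed at 0 in both groups, and the shared sign of the remaining members was not tested.

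**Figure D4:**
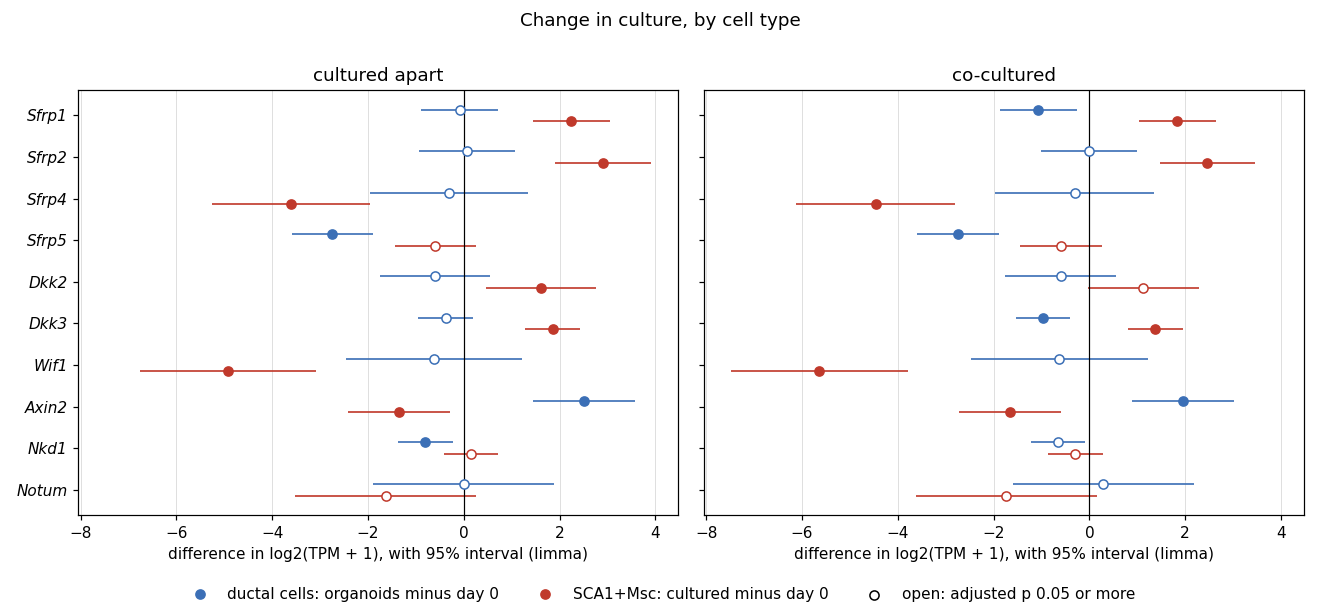
Change from day 0 in log2(TPM + 1) of each gene in ductal cells (blue) and SCA1+Msc (red), with 95% intervals from limma, for EM organoids and Msc alone (left) and for the co-culture (right), where filled points passed the test at an adjusted p under 0.05. Axin2 lies to the right of 0 in ductal cells and to the left in SCA1+Msc in both panels, and Wif1 and Sfrp4 have the most negative values in SCA1+Msc.

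Other pathway genes in the organoids did not all follow Axin2. Of all genes, 44.4% were called in EM organoids against DCs (27.1% higher and 17.2% lower). In co-cultured organoids 42.3% were called (23.2% and 19.1%), and between both kinds of organoid 12.9%. The counts of feedback targets and receptors called against DCs lay near these shares. In EM organoids, of 9 tested further feedback targets, Lgr5, a receptor of R-spondins (3.93 ± 0.53, adjusted p = 2.56e-04), Sp5 (2.89 ± 0.81, adjusted p = 0.0162) and Ascl2 (1.44 ± 0.49, adjusted p = 0.0386) were higher than in DCs and Myc was lower (-3.02 ± 0.18). In co-cultured organoids Ccnd1 was higher and Tnfrsf19 and Myc were lower. Lgr5 measured 19.6 ± 9.65 TPM (SD, n = 2) in EM organoids and 0.278 ± 0.393 in co-cultured organoids, and that difference was itself called (-3.96 ± 0.53, adjusted p = 0.00122), which was not so for Axin2. Kremen2, a Dickkopf receptor, was 13.2 ± 2.29 TPM in co-cultured and 0.169 ± 0.135 in EM organoids (3.60 ± 0.28, adjusted p = 5.54e-05). Of 14 tested receptors and co-receptors, Fzd1 and Fzd2 were higher and Fzd5, Fzd9 and Lrp6 lower in both kinds of organoid than in DCs, and Lrp5 was higher and Ror2 lower in EM organoids and Ror1 lower in co-cultured organoids.

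In cultured SCA1+Msc, Frzb rose along with Sfrp1 and Sfrp2. It measured 58.6 ± 0.207 TPM (SD, n = 2) at day 0, 626 ± 9.23 in Msc alone and 705 ± 92.3 in co-culture, with log2 differences of 3.39 ± 0.53 (adjusted p = 6.44e-04) and 3.56 ± 0.53 (adjusted p = 5.10e-04). Of the 4 tested further secreted antagonists, Frzb, Igfbp4 and Draxin were higher in both cultures, and Angptl4 was lower in Msc alone. Beside this, 44.8% of all genes were called in Msc alone (27.4% higher and 17.5% lower) and 43.3% in co-culture (26% and 17.3%). The counts of further feedback targets and of membrane inhibitors called lay near these shares. Nkd2 rose (1.09 ± 0.32 alone and 1.31 ± 0.32 in co-culture), and of the 9 tested further feedback targets Ccnd1 was also higher and Cd44 and Myc were lower in both. Of the 8 membrane inhibitors and Dickkopf receptors, Shisa2 was higher and Tpbg and Znrf3 were lower in both. No gene of the 5 lists was called between co-cultured Msc and Msc alone, where 0.127% of all genes were called.

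Over the 12 transwell samples and 11272 genes, Dkk3 was most like Gucy1a3 (r = 0.998), Cdh11 and Fbn2, Sfrp1 most like Gucy1a3 (r = 0.995), Tbx20 and Cdh11, and Nkd1 most like Ddr2 (r = 0.998), Thbs2 and Ptgis. Wif1 was most like Adamts8 (r = 0.969), Sec61g and Grrp1, and Sfrp4 most like Ptgs2os (r = 0.977), Fitm1 and Fam150b. Axin2 was most like Ftsj1 (r = 0.938), Add3 and Mzt2. Sfrp1, Sfrp2, Dkk2, Dkk3 and Nkd1 had r of 0.954 to 0.996 with one another, and Axin2 had r of 0.291 to 0.361 with these 5. The 12 samples fall into ductal and stromal clusters, so these values describe mainly that split.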

How the data were processed

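RNA-seq values of 24 libraries were used. Smart-seq2 single-end reads were aligned by the authors to GRCm38 with STAR 2.5.0a and counted on exons with featureCounts (1.6.0 per the labels). The transwell table was deposited as RPKM, and each column was scaled here to TPM. The homeostasis table was deposited under the name TPM, with 4 columns of the authors' means that were not used. Its values are a score of their own rather than TPM, since totals were reused in a cycle of 12. Genes that reached 1 in 3 or more homeostasis samples, or in 2 or more transwell samples, were fitted as log2(value + 1) with limma 3.58.1 in R 4.3.3, with 1 mean per group, a trend and two-sided Benjamini-Hochberg adjusted p over all genes (threshold 0.05). Where nothing names separate cultures, p-values measure only the spread between samples. Reads were recovered from low values (92.9% of 47020 and 93.0% of 50174 whole within 0.02), except for Sfrp4, and floors cover counting error only. Same-lettered homeostasis samples came from 1 mouse (residual r 0.00395 to 0.0973), so a block was run. The fit was tested on simulated data. The members and lists were chosen with earlier results of these data known. Log2 differences with SE and adjusted p are given only for members past the threshold or close to it, not for each of them, and other members by their values, and for each member the 3 most similar genes could be named. Leave-one-out, pseudocount, filter, scaling and block alternatives were run, and 26 transwell symbols that had become dates were not used. Python 3.11.15 was used beside R.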

Additional observations from a re-analysis of the deposited data

Results flagged for a closer look

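Changes from day 0 were compared between ductal cells and SCA1+Msc by an interaction term in the same limma fit, chosen after seeing the data. Each value is the log2 change in ductal cells minus that in SCA1+Msc. Members near 0 in a cell type could not fall there, so their values mainly restate the change in the other cell type. For EM organoids and Msc alone, 8 of 10 members passed, beside 26.8% of all genes, and Nkd1 and Notum did not. Axin2 gave 3.86 ± 0.67 (adjusted p = 0.00293), having risen by 2.503 in ductal cells and fallen by 1.36 in SCA1+Msc. Wif1 gave 4.30 ± 1.16 (adjusted p = 0.0227) and Sfrp4 3.30 ± 1.04 (adjusted p = 0.0429), both through falls in SCA1+Msc of genes that were near 0 in ductal cells throughout, where no like fall was possible. Sfrp1 gave -2.33 ± 0.51, Sfrp2 -2.84 ± 0.63, Dkk3 -2.24 ± 0.36 and Dkk2 -2.21 ± 0.73 (limma, largest adjusted p = 0.0497, for Dkk2). Sfrp5 gave -2.15 ± 0.54 (adjusted p = 0.0162), but it was at 15 and 0 reads in SCA1+Msc at day 0, so no like fall was possible there.

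In the co-culture, 7 of 10 members passed, beside 28.3% of all genes, and Dkk2, Nkd1 and Notum did not. With the same limit, the values were 3.61 ± 0.67 for Axin2, 5.01 ± 1.16 for Wif1, 4.15 ± 1.04 for Sfrp4, -2.90 ± 0.51 for Sfrp1, -2.47 ± 0.63 for Sfrp2, -2.35 ± 0.36 for Dkk3 and -2.15 ± 0.54 for Sfrp5 (limma, largest adjusted p = 0.0167). No member passed when the difference between co-culture and culture apart was compared between the cell types (0 of 10 by limma, none at an unadjusted p under 0.05, 4.85% of all genes). With SEs of 0.357 to 1.19 on the log2 scale, differences of moderate size could be missed. Sfrp4, Sfrp5, Dkk2 and Wif1 were listed at 0 in both kinds of organoid, so no change could be seen there. Cell type and medium cannot be told apart for EM organoids and Msc alone. In both cultures, cell type also cannot be told apart from the earlier expansion of SCA1+Msc. Between co-cultured and EM organoids, stroma and medium changed together. Groups of 2 or 3 samples were not examined for single samples that stand apart.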

How the results depend on the processing

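No member difference that passed the test changed sign under any alternative run. Differences that did not pass, genes of the other lists and interactions were not refitted. The homeostasis counts against DCs and of PDGFRα-SCA1+ cells against the PDGFRα+ fractions stayed within 1.5 times under every alternative. Between both PDGFRα+ fractions the count of 1 went to 0 with a pseudocount of 0.1, with a fit of only the groups compared and with the replicate block, and ran from 0 to 2 when 1 sample was left out. The block moved no other count by over 1.5 times. In the transwell experiment the labels do not say what the replicate numbers mark (residual r of 0.00428 to 0.0295), and a block on them took the counts from 4 to 3 in co-cultured organoids against DCs and from 7 to 6 in Msc alone. A pseudocount of 0.1 gave 1 member (Dkk3) between both kinds of organoid and 3 in Msc alone and in co-cultured Msc against day 0. A fit of only the groups compared gave 3 and 2. RPKM as deposited gave 2 in co-cultured organoids against DCs. Leaving out 1 sample gave 1 to 4 in co-cultured organoids against DCs and 0 to 1 between both kinds of organoid. With 2 samples per transwell group, a sample left alone is assumed to vary like the others. Differences against a group listed at 0 depend on the pseudocount.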
